A study of Mus musculus with 6 samples.

Results

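The expression of 8 genes that are linked to the firing of olfactory sensory neurons (OSNs) was measured in single mature OSNs of the mouse main olfactory epithelium. The genes were taken by symbol, 8 of the 24564 genes in the count matrices: *S100a5*, *Pcp4l1*, *Lrrc3b*, *Fos*, *Junb*, *Egr1*, *Npas4* and *Nr4a1*. A cell was taken as a mature OSN when it had at least 10 unique molecular identifiers (UMIs, single counted transcripts) of *Omp*, more *Omp* than *Gap43* and fewer than 5 UMIs of *Cyp2g1*, and 5540 of 24830 cells met this rule. *Omp* encodes the olfactory marker protein of mature OSNs, *Gap43* a growth protein of immature ones, and *Cyp2g1* an enzyme of sustentacular cells, the supporting cells of the epithelium.

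An OSN that meets its odour raises cyclic AMP, opens a cation channel and lets calcium in, and calcium and cyclic AMP signals then reach the nucleus, where the factor CREB and its relatives act on target genes. Immediate early genes answer within minutes to hours and fade fast: *Fos* and *Junb* encode parts of the AP-1 transcription factor, *Egr1* a zinc finger factor, *Nr4a1* an orphan nuclear receptor and *Npas4* a factor that neurons switch on with calcium entry. *S100a5* encodes a calcium-binding protein that OSNs lose when odour is kept from the nose, and its transcript is used as a slow record of how active a neuron has been. *Pcp4l1* encodes a small protein related to the calmodulin-binding protein Pcp4, and *Lrrc3b* a membrane protein with leucine-rich repeats. Each OSN chooses 1 odorant receptor gene, so neurons with different receptors can meet different amounts of stimulation.

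The 6 libraries came from 4 kinds of mice, prepared with papain and the 10x Genomics 3′ droplet assay, and the ages of the mice are not given in the sources used here. In 1 library (tetOP2, genotype gg8-tTA; tetOP2iresGFP) the tetracycline transactivator, driven by the promoter of *Gng8* that is active in immature OSNs, switched on a transgene of the receptor *Olfr17* (also called P2) with GFP, and 1 library of gg8-tTA mice without the receptor transgene (gg8tTA) was its control. In 2 swap libraries a Cre driver had recombined the Cbx*/* alleles, which puts the coding sequence of *Cbx5* in the place of that of *Cbx1*, both genes for heterochromatin proteins. Of the 2 control libraries, replicate 1 is labelled wild type with the Cre driver and replicate 2 is labelled Cbx*/* without Cre. In mature OSNs *Cbx1* was at 2.27 and 3.32 CPM (UMIs scaled to 1e6 per library and class) under the swap against 81.9 and 154 in controls, and *Cbx5* was at 80.7 and 90.4 against 21.0 and 34.6, so the swap labels matched the transcripts.

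Mature OSNs numbered 672 in tetOP2, 691 in gg8tTA, 770 and 1002 in swap replicates 1 and 2 and 1131 and 1274 in control replicates 1 and 2, with a median depth of 11276 to 12842 UMIs per cell. All 8 fixed markers of mature OSNs were higher in these cells than in immature OSNs, *Omp* being one that the rule used. The headers of the gg8tTA and tetOP2 matrices name no software version while those of the other 4 do, so whether all 6 were prepared with the same chemistry is not known. Per 5000 UMIs the mature OSNs of gg8tTA and tetOP2 held 41.2 to 44.5 UMIs of *Omp* on average against 11.9 to 19.3 in the others, so no difference between genotypes was taken across these 2 sets. Ranges over 6 libraries and pooled receptor levels include both sets. *Xist*, which is transcribed in female cells, was at 1230 to 1428 CPM in tetOP2, gg8tTA and swap replicate 1 and at 0 to 0.0586 CPM in the other 3 libraries, so the 2 swap libraries differed in sex. Sustentacular markers summed to 105 to 578 CPM in mature OSNs against 36213 to 50768 CPM in sustentacular cells, and markers of macrophages and neutrophils summed to 117 to 1884 CPM in mature OSNs. Pairs of libraries shared between 0 and 20 cell barcodes.

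Promoter sequences are shown because several members varied together from cell to cell, and their windows differ in a short motif. A RefSeq promoter, 250 bases before to 50 bases from the transcription start on, was taken for 7 of the 8 genes on assembly GRCm38.p6. That of *Egr1* was not searched. The motif TGACG, the core of the cyclic AMP response element that CREB binds, was searched on both strands and is in capitals below, TGACG on the printed strand and CGTCA where it lies on the other. *S100a5* (chr3:90608272-90608571, plus strand) and *Pcp4l1* (chr1:171196219-171196518, minus strand) stand for the 3 members that are not immediate early genes. *Fos* (chr12:85473640-85473939, plus strand) and *Nr4a1* (chr15:101266596-101266895, plus strand) stand for the immediate early genes.

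S100a5: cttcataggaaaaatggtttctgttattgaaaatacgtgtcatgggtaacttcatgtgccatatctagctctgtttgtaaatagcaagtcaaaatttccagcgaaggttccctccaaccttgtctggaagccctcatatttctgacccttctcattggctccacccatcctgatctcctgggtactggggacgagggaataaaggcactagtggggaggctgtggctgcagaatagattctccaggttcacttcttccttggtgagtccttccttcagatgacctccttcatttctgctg

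Pcp4l1: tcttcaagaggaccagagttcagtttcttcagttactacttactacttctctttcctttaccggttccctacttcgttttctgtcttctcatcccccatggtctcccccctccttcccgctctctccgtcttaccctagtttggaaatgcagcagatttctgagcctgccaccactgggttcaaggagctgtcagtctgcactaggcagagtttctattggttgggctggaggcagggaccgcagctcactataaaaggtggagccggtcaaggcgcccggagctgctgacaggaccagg

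Fos: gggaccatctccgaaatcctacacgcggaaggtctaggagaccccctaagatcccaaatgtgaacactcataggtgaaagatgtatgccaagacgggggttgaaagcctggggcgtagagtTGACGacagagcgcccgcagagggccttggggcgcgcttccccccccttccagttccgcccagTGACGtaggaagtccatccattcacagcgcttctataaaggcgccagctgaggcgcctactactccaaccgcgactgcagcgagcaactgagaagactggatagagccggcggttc

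Nr4a1: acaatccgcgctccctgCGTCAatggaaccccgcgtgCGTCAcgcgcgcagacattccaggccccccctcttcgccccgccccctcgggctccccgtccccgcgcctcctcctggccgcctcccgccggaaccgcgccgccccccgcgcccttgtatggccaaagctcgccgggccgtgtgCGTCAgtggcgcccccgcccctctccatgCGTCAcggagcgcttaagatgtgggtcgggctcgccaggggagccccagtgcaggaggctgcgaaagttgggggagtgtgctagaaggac

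The core was at 2 places in *Fos*, starting at -129 and -66 from the start site, and at 4 places in *Nr4a1*, starting at -233, -213, -69 and -40. *Npas4* had 2 matches, at -179 and -169, and *Junb* 1 at -106, whereas the windows of *S100a5*, *Pcp4l1* and *Lrrc3b* held none. Of all 32851 promoters of this length, 20.8% held the core. The motif contains a CpG, and the 4 windows with it also held more CpG, 20 to 35 against 3 to 9, at a GC content of 58.7 to 72.3% against 46.3 to 57.0%. The full element TGACGTCA, which contains the core, was in none of the 7 windows and in 1.79% of all. The AP-1 site TGANTCA (7.81% of all promoters), the CArG box of serum response factor (1.63%) and the EBF motif (0.904%) were in none of these windows either. The box TATAAA lay at -33 in *Fos* and at 1 in *Pcp4l1* and *Junb*, and 13.6% of promoters held it.

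*S100a5*, *Pcp4l1* and *Lrrc3b* were highest in mature OSNs, whereas *Fos*, *Junb*, *Egr1* and *Nr4a1* were highest in sustentacular cells. *S100a5* was at 10881 CPM in tetOP2, 8029 in gg8tTA, 12178 and 9215 in swap replicates 1 and 2 and 12871 and 17344 in control replicates 1 and 2, against 155 to 544 CPM in immature OSNs and 48.2 to 198 CPM in sustentacular cells. No library of mature OSNs came near the other cells. *Pcp4l1* ranged from 604 to 1163 CPM in mature OSNs with a median of 753, from 54.9 to 95.8 CPM in immature OSNs and from 166 to 246 CPM in sustentacular cells. *Lrrc3b* ranged from 59.3 to 168 CPM with a median of 120 in mature OSNs, from 15.2 to 27.5 CPM in immature OSNs and from 6.31 to 12.0 CPM in sustentacular cells.

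Among the immediate early genes, *Fos* was at 261 to 489 CPM in mature OSNs (median 295), 364 to 449 CPM in immature OSNs and 1607 to 2716 CPM in sustentacular cells. *Junb* (110 to 209, median 127), *Egr1* (78.9 to 175, median 160) and *Nr4a1* (28.1 to 96.0, median 33.7) were likewise below their sustentacular levels of 960 to 1626, 520 to 821 and 210 to 448 CPM in every library. *Npas4* was almost absent, with 73 UMIs in all 5540 mature OSNs, 9 to 20 per library, or 0.772 to 1.29 CPM. Cells were thinned to 5000 UMIs to compare shares, which left out 3 to 37 mature OSNs per library. On that footing *S100a5* was seen in 67.5 to 88.8% of mature OSNs and in 13.6 to 64.1% of sustentacular cells, and *Fos* in 49.2 to 77.3% and 80.4 to 96.7%. A share of cells with a *Fos* UMI is thus below that of a cell type rich in it, and what free RNA adds to *Fos* in OSNs was not tested. The tissue was dissociated with papain before capture, and what this step added to the immediate early genes was not tested either.

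**Figure D1:**
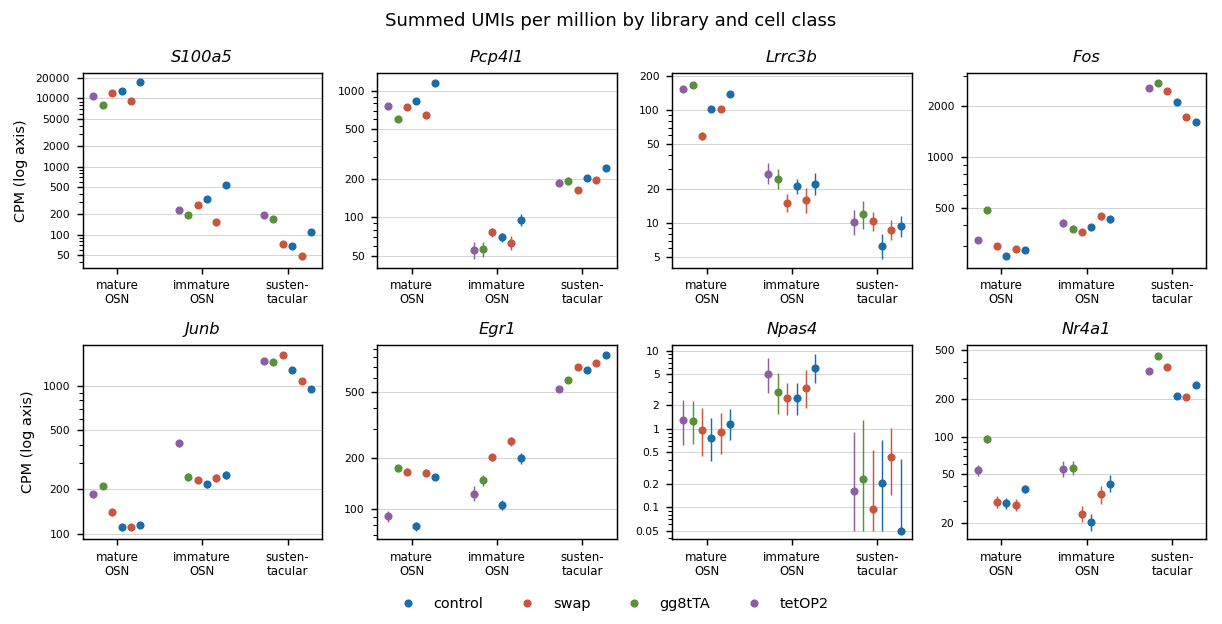
CPM of the 8 genes (log axis) in mature OSNs, immature OSNs and sustentacular cells of the 6 libraries, with 95% exact Poisson intervals that cover counting error only and values under 0.05 drawn at 0.05. *S100a5* in mature OSNs lies between 8029 and 17344 CPM in all libraries, above every immature and sustentacular value, whereas *Fos* is highest in sustentacular cells at 1607 to 2716 CPM.

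Maturation was tested on UMI sums per library, with the library as a block and edgeR's quasi-likelihood test. A gene was called at a Benjamini-Hochberg adjusted p under 0.05 and an absolute log2 fold change over 0.58, and 34.9% of 12323 genes tested were called, 17.9% (2209 genes) higher and the remaining 2089 genes lower in mature OSNs. All 8 members were tested, and 3 rose and 2 fell from immature to mature OSNs. *S100a5* rose by a log2 fold change of 5.56 (SE 0.12, adjusted p = 6.3e-08 by edgeR), *Pcp4l1* by 3.64 and *Lrrc3b* by 2.58. *Npas4* fell by 1.63 on the log2 scale (SE 0.21) and *Junb* by 0.75 (SE 0.11). The log2 fold changes of *Fos* (-0.21), *Egr1* (-0.19) and *Nr4a1* (0.33) did not pass.

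Of 28 other immediate early genes, 9 fell, among them *Nr4a2* (-2.26), *Sik1* (-1.35), *Arc* (-1.15) and *Btg2* (-0.92), and 3 rose (*Ier2*, *Ier5* and *Klf2*). Their median log2 fold change was -0.27 against -0.02 over all genes tested. All 5 axon and histone genes whose levels in OSNs are linked to activity rose: *Epha5* by 3.19 and *Efna5* by 1.91, a receptor and a ligand of axon guidance, *Kirrel3* by 2.08 and *Kirrel2* by 1.86, adhesion molecules that sort axons, and *Hist2h2be*, a histone H2B variant, by 0.78. All 13 tested genes of olfactory transduction rose, and of 16 CREB pathway genes *Camk4*, a calcium-dependent kinase, rose by 1.79 and the other 15 did not pass. Of 10 heat shock genes, which mark stress of the dissociated cells, *Hspa1a* rose by 1.23. In cells with at most 2 UMIs of markers of other cell types, a limit added after seeing the data, *Nr4a1* also rose, by 0.99 (SE 0.19, adjusted p = 0.00059 by edgeR), *Junb* fell by 0.78 and *Npas4* was too low to be tested. This limit left 32 cells of tetOP2, 31 of gg8tTA and 616 to 955 of each other library.

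From cell to cell, *S100a5*, *Pcp4l1* and *Lrrc3b* formed a set and *Fos*, *Junb* and *Egr1* another. *Nr4a1* went weakly with the second, and *Npas4* was too sparse to be placed. Correlations were taken within each library over mature OSNs thinned to 5000 UMIs, on log2(UMIs + 1), and are given as the mean of 6 libraries. They describe the cells and share each cell's depth. *S100a5* and *Pcp4l1* had a Pearson r of 0.81, from 0.76 to 0.83 in single libraries, and *Lrrc3b* had an r of 0.50 with each of them. *Fos* and *Egr1* had an r of 0.41, *Fos* and *Junb* 0.31, *Junb* and *Egr1* 0.28, and *Fos* and *Nr4a1* 0.19. Between the sets the r of *S100a5* and *Fos* was -0.08. The r of *Nr4a1* was 0.19 with *Junb* and 0.18 with *Egr1*, against 0.065 with *S100a5* and 0.072 with *Pcp4l1*. In gg8tTA it was 0.14 with both *Fos* and *Pcp4l1*, so *Nr4a1* was placed only loosely. *Npas4* had an r of 0.031 with *Fos* and -0.018 with *S100a5*. A UMI of *Npas4* was left in only 2 to 8 thinned cells per library, so these values cannot place it.

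**Figure D2:**
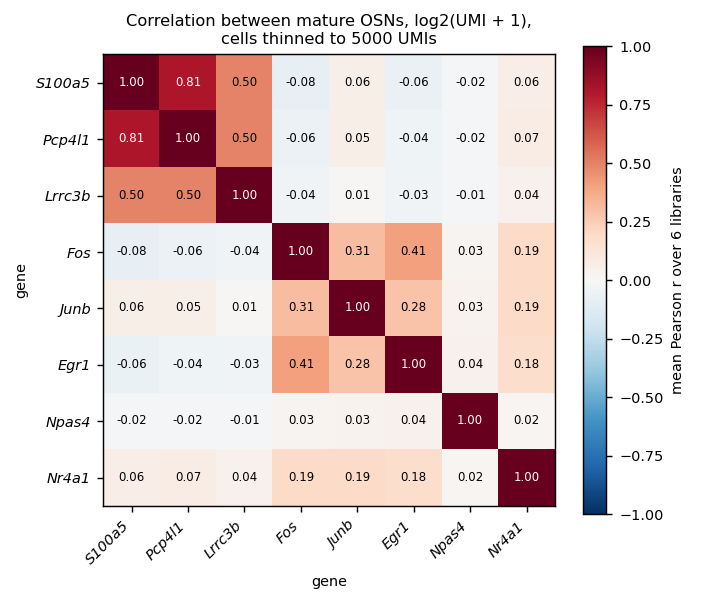
Pearson r between the 8 genes over mature OSNs thinned to 5000 UMIs, on log2(UMIs + 1), as the mean of 6 libraries. *S100a5*, *Pcp4l1* and *Lrrc3b* form a block at 0.50 to 0.81 and *Fos*, *Egr1* and *Junb* one at 0.28 to 0.41, and *S100a5* with *Fos* is at -0.08.

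Among 7803 genes seen in at least 5% of cells, those most like *S100a5* in this measure included *Pcp4l1* (0.81), 5730403I07Rik (0.51), *Lrrc3b* (0.50), *Ckb* (0.44), a creatine kinase, *Pde1c* (0.38), a phosphodiesterase that breaks down cyclic AMP in OSN cilia, and *Slc8a1* (0.36), a sodium-calcium exchanger. Those least like it were *Calb2* (-0.75), which encodes the calcium-binding protein calretinin, *Ppp3ca* (-0.53), a subunit of the calcium-dependent phosphatase calcineurin, and *Cotl1* (-0.42) and *Gap43* (-0.39). Those most like *Fos* after *Egr1* and *Junb* were *Btg2* (0.29), *Fosb* (0.28), *Jun* (0.24), *Atf3* (0.20), *Pcdh10* (0.20) and *Nr4a1* (0.19).

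*S100a5* was spread over a very wide range. Per 5000 UMIs the median cell held 18 UMIs in tetOP2, 5 in gg8tTA, 9 and 6.5 in swap replicates 1 and 2 and 14 and 36 in control replicates 1 and 2, and the highest cell of each library 432 to 751. The tenth of cells with the most held 43.2 to 56.2% of all *S100a5* UMIs. A library's CPM therefore rests largely on its highest cells.

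The genes that moved with this range were tested by comparing mature OSNs at or above the 75th with those at or below the 25th percentile of thinned *S100a5* in each library. These are cells chosen by *S100a5*, so the genes that follow describe what varied with it, and 7.45% of 8310 genes were called, 3.68% higher and 3.77% lower in *S100a5*-high cells. Of 6 other members tested, *Pcp4l1*, *Lrrc3b* and *Nr4a1* were higher in *S100a5*-high cells. *Pcp4l1* was at 1792 to 3117 CPM in *S100a5*-high cells and 15.5 to 38.8 CPM in *S100a5*-low cells over the 6 libraries. Its log2 fold change was 6.57 (SE 0.13, adjusted p = 4.1e-18 by edgeR), that of *Lrrc3b* 3.69 (SE 0.086) and that of *Nr4a1* 0.63 (SE 0.17, adjusted p = 0.013 by edgeR). The call of *Nr4a1* was lost without control replicate 2, at 0.38.

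*Fos* (-0.44) and *Egr1* (-0.48) had adjusted p values of 0.00012 and 0.0031 by edgeR and stayed under the fold threshold, on the side of lower levels in *S100a5*-high cells, and *Junb* was at 0.27. Of 17 other immediate early genes tested, 5 were lower (*Jun* -1.22, *Atf3* -1.15, *Zfp36* -1.03, *Klf6* -0.73, *Klf4* -0.71) and none was higher. The list's median was -0.28 against -0.01 over all genes. In *S100a5*-low cells sustentacular markers summed to 117 to 578 CPM and macrophage and neutrophil markers to 57.6 to 2130 CPM, in *S100a5*-high cells to 66.9 to 481 CPM and 21.9 to 774 CPM. With at most 2 UMIs of such markers *Pcp4l1* (6.998), *Lrrc3b* (3.74), *Nr4a1* (1.08) and also *Junb* (0.69) were higher.

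*Calb2* was the mirror image of *Pcp4l1*, at 28.1 to 292 CPM in *S100a5*-high and 2233 to 3508 CPM in *S100a5*-low cells, a log2 fold change of -4.41 (SE 0.20, adjusted p = 1.8e-12 by edgeR). *Calb2* was shown because it was least like *S100a5* in these same cells, so its direction and p value are no separate support. The axon genes went different ways. *Kirrel2* (1.83) and *Epha5* (1.40) were higher in *S100a5*-high cells, *Kirrel3* (-2.38) and *Efna5* (-1.65) were lower, and *Hist2h2be* was at -0.52 and not called. Of 13 transduction genes tested, *Pde1c* (1.55), *Ric8b* (0.77), an exchange factor for the olfactory G protein, and *Ano2* (0.67), a chloride channel of the cilia, were higher. *Camk4* was the one of 13 CREB pathway genes called, at 1.27. Of 7 immature markers 5 were lower, among them *Gng8* (-2.76) and *Gap43* (-2.73), and none of the 8 mature markers was called.

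The immediate early genes were followed from *Fos*. Mature OSNs with at least 1 *Fos* UMI after thinning were compared with those without, and 0.545% of 9904 genes were called, 0.535% higher and 0.0101% lower in *Fos*-positive cells. Of 6 other members tested, *Egr1*, *Junb* and *Nr4a1* were higher. *Egr1* was at 112 to 246 CPM in *Fos*-positive and 31.3 to 103 CPM in *Fos*-negative cells, higher in *Fos*-positive cells in all 6 libraries. Its log2 fold change was 1.96 (SE 0.15, adjusted p = 1.9e-05 by edgeR), that of *Junb* 1.19 (SE 0.088, adjusted p = 1.9e-05 by edgeR) and that of *Nr4a1* 0.96 (SE 0.19, adjusted p = 0.038 by edgeR).

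None of the 3 members that are not immediate early genes passed in this contrast. The log2 fold changes were -0.18 for *S100a5*, -0.10 for *Pcp4l1* and -0.04 for *Lrrc3b*, with adjusted p values by edgeR of 0.26, 0.84 and 0.97. Of 19 other immediate early genes tested, 8 were higher (*Fosb* 1.49, *Sik1* 1.42, *Egr4* 1.35, *Atf3* 1.22, *Klf4* 1.19, *Btg2* 1.10, *Zfp36* 1.09, *Jun* 0.65), and the list's median was 0.54 against 0.00 over all genes. None of 5 axon and histone genes, 13 transduction genes or 14 CREB pathway genes was called by edgeR, and of 10 heat shock genes *Hspb1* was higher, at 1.22. Neutrophil genes were called too, *Lcn2* at 3.73 and *S100a9* at 2.29, and macrophage and neutrophil markers summed to 121 to 1717 CPM in *Fos*-positive and 25.1 to 280 CPM in *Fos*-negative cells. In cells with at most 2 UMIs of markers of other types, where *S100a9* was at 0.05, *Egr1* (2.16), *Junb* (1.18) and *Nr4a1* (0.94) were still called. The call of *Nr4a1* was lost without tetOP2, gg8tTA, control replicate 1, swap replicate 2 or control replicate 2, and with no filter on low counts, with log2 fold changes of 0.94 to 1.09.

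*S100a5* levels differed widely between neurons with different receptors, and *Fos* levels much less. A receptor was taken as chosen when it was the odorant receptor gene with the most UMIs in a cell, at least 3, and in the 5 libraries other than tetOP2 108 receptors were chosen by at least 10 mature OSNs, 1506 cells in all. Over these receptors *S100a5* ran from 6.39 CPM (*Olfr1442*, 10 cells) through a median of 6348 to 50507 CPM (*Olfr370*, 15 cells). *Olfr571* (49830), *Olfr666* (48217), *Olfr1370* (47853), *Olfr365* (45382) and *Olfr9* (44636) followed at the top, and *Olfr1408* (25.1), *Olfr812* (26.3), *Olfr1406* (26.8), *Olfr77* (41.4) and *Olfr1176* (41.9) closed the order at the bottom. When each library was weighted equally, by the level over that of all its mature OSNs, an order added after seeing the data, 4 of the 6 highest and all 6 lowest were the same receptors, *Olfr481* came first, and Spearman's rho with the pooled order was 0.99. The level was above 10000 CPM in 41 receptors and below 1000 CPM in 27, and in 16 it was no higher than the highest level in sustentacular cells.

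The ends of this order were also looked at in single libraries, whose cells had set the order. *Olfr370* cells were at 41921 and 67030 CPM in control replicates 1 and 2, 28418 and 41619 CPM in swap replicates 1 and 2 and 40700 CPM in gg8tTA, from 1 to 6 cells each. *Olfr1442* cells were at 0 and 29.4 CPM in the controls and at 0 in swap replicate 1, from 6, 3 and 1 cells. Over the 6 pairs of swap and control libraries the r of the receptors' *S100a5* levels was 0.77 to 0.92, over 17 to 41 receptors, and that of *Fos* 0.058 to 0.49. In the 4 pairs with gg8tTA, over 7 to 16 receptors, *S100a5* was at 0.78 to 0.93 and *Fos* at -0.50 to 0.33.

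Sums of at least 5 cells per receptor and library were tested with the library as a block, 65 sums of 28 receptors, by 1 F test of all receptors with edgeR. *S100a5* (adjusted p = 6.0e-12 by edgeR), *Pcp4l1* (1.3e-14), *Lrrc3b* (1.0e-07), *Fos* (0.0014) and *Junb* (0.037) differed between receptors, 5 of 6 members tested against 14.8% of 3012 genes. *Egr1* had an adjusted p of 0.058 by edgeR, and *Junb* lost its call without control replicate 1 (0.14) or 2 (0.27). Neutrophil genes (*Lcn2*, *Ngp*, *S100a8*, *S100a9*) differed between receptors as well, and their part in the result for *Fos* was not tested. With at most 2 UMIs of markers of other cell types, which left 20 sums, *S100a5*, *Pcp4l1* and *Lrrc3b* were called, *Egr1* was called (0.040) and *Fos* (0.070) and *Junb* (0.53) were not.

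The ratio of the third to the first quartile over the 108 receptors was 16.6 for *S100a5*, 57.7 for *Pcp4l1* and 6.23 for *Lrrc3b*, against 1.97 for *Fos*, 2.15 for *Junb*, 3.06 for *Egr1* and 3.35 for *Nr4a1*. The share of the variance between cells that lay between receptors was taken as the intraclass correlation. Only receptors with at least 5 cells in a library entered, 20 cells in gg8tTA and 121 to 242 in each swap and control library. The median share of these 5 libraries was 0.67 for *S100a5*, 0.67 for *Pcp4l1*, 0.22 for *Lrrc3b*, 0.085 for *Egr1* and 0.0024 for *Fos*. It ranged from 0.36 to 0.67 for *S100a5* and from -0.20 to 0.11 for *Fos*. Mean UMIs per thinned mature OSN were 40.2 to 86.4 for *S100a5* and 2.86 to 5.62 for *Pcp4l1* in these libraries. They were 1.21 to 2.25 for *Fos*, 0.399 to 0.843 for *Egr1* and 0.293 to 0.850 for *Lrrc3b*. What part the lower counts had in the lower shares was not tested. Across receptors, Spearman's rho of *S100a5* was 0.94 with *Pcp4l1*, 0.90 with *Lrrc3b*, -0.85 with *Calb2*, 0.24 with *Omp* and -0.07 with *Fos*, and that of *Fos* was 0.73 with *Egr1* and 0.59 with *Junb*. These points share libraries and are a description. The *Fos* level did not follow the *S100a5* level over receptors, and the median *Fos* level was 242 CPM in the 36 receptors with the most *S100a5* and 301 CPM in the 36 with the least.

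**Figure D3:**
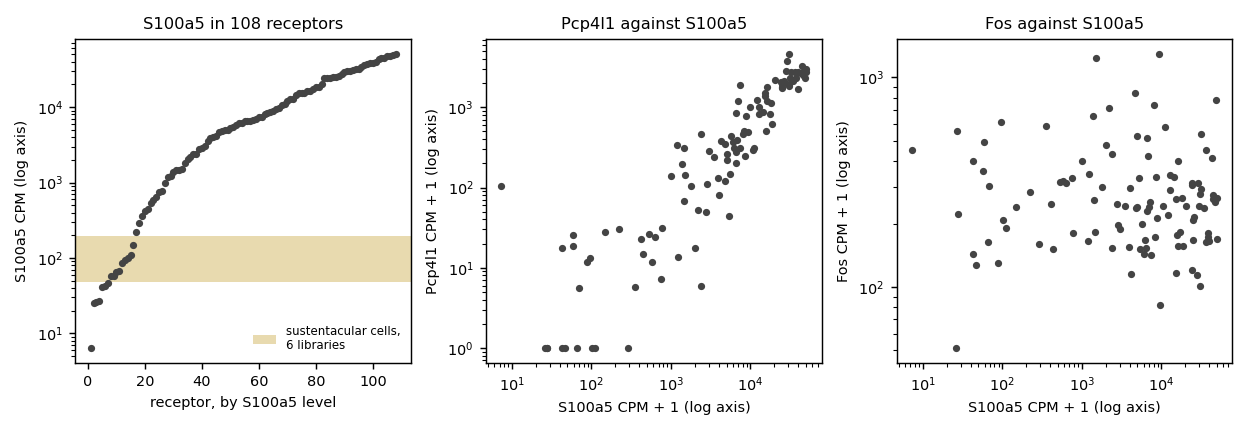
Each point is 1 of 108 receptors chosen by at least 10 mature OSNs in 5 libraries, with *S100a5* in CPM by rank (the band is its sustentacular range, 48.2 to 198 CPM) and *Pcp4l1* and *Fos* against *S100a5* in CPM + 1, all levels on log axes. *S100a5* and *Pcp4l1* rise together (Spearman's rho 0.94), whereas *S100a5* and *Fos* show no order (-0.07).

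Cells of 1 receptor still differed. Within receptors of at least 5 cells in a library, the SD of log2(*S100a5* UMIs + 1) was 1.67 to 2.11 in the swap and control libraries. Over all mature OSNs of the same libraries, a larger set of cells, it was 2.91 to 3.04. After the receptors' means were taken out, the r of *S100a5* in these libraries was 0.46 to 0.77 with *Pcp4l1* and -0.73 to -0.56 with *Calb2*. In gg8tTA, from 20 cells, these were 0.78 and -0.10. The r of *Fos* and *Egr1* was 0.31 to 0.40 in the 5 libraries.

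The swap of *Cbx1* for *Cbx5* was compared with the controls at 2 libraries each, on sums over mature OSNs. The controls differed in their genotype labels and the swap libraries in sex, so the spread within each group holds these differences too. Of these libraries only swap replicate 1 held *Xist* at a high level, so the difference between the groups holds sex as well. None of the 8 members passed. *S100a5* was at 12178 and 9215 CPM with the swap and 12871 and 17344 CPM without it, 10697 ± 2095 against 15107 ± 3163 (SD, n = 2 each). *Pcp4l1* was at 749 and 644 CPM against 837 and 1163 CPM, and *Lrrc3b* at 59.3 and 102 CPM against 102 and 138 CPM. Both swap libraries thus lay below both controls for *S100a5* and *Pcp4l1*, and for *Lrrc3b* the nearest libraries were equal to 3 digits. Over all genes 7.89% had both swap libraries below both controls.

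The log2 fold changes were -0.55 (SE 0.24) for *S100a5*, -0.57 (SE 0.23) for *Pcp4l1* and -0.61 (SE 0.35) for *Lrrc3b*, each with an adjusted p of 1 by edgeR. edgeR called 0.0% of 13378 genes, 401 at an unadjusted p under 0.05, and DESeq2 called 205, none of them a member. An exact permutation test of 2 against 2 libraries, two-sided, cannot go below p = 0.333.

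*Fos* was at 300.4 and 289 CPM with the swap against 261 and 285 CPM without it, and *Egr1* at 166 and 165 CPM against 78.9 and 155 CPM. The swap libraries were above the controls for both, as for 11.9% of all genes, with log2 fold changes of 0.06 and 0.46, and with 1 library left out *Egr1* ran from 0.092 (without control replicate 1) to 0.96 (without control replicate 2). The groups overlapped for *Junb* (0.11), *Npas4* (-0.08) and *Nr4a1* (-0.25). The sign of *Fos* and *Junb* turned, to -0.045 and -0.12, with at most 2 UMIs of markers of other cell types, whose macrophage and neutrophil list had a median log2 fold change of 1.62 between the groups. Only 6 receptors had at least 3 cells in each of the 4 libraries, 132 cells in all. In these the mean log2 difference per receptor was -0.93 for *S100a5*, 0.79 for *Pcp4l1*, -1.96 for *Lrrc3b*, 1.43 for *Egr1* and 0.31 for *Fos*, so *S100a5* and *Pcp4l1* had opposite signs there. These are means of log2(CPM + 1) over sums of 3 to 13 cells, so a few UMIs weigh heavily. Pooled *Pcp4l1* was at 10.7 to 30.6 CPM in *Olfr1361*, *Olfr1030* and *Olfr1440* and at 785 to 1780 CPM in *Olfr15*, *Olfr222* and *Olfr309*. The exact permutation p was 0.667 for *S100a5* and 0.333 for the other 4. With 1 library left out *S100a5* ran from -1.68 (without control replicate 1) to -0.18 (without control replicate 2), and *Lrrc3b* from -3.72 (without swap replicate 2) to -0.21 (without swap replicate 1).

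**Figure D4:**
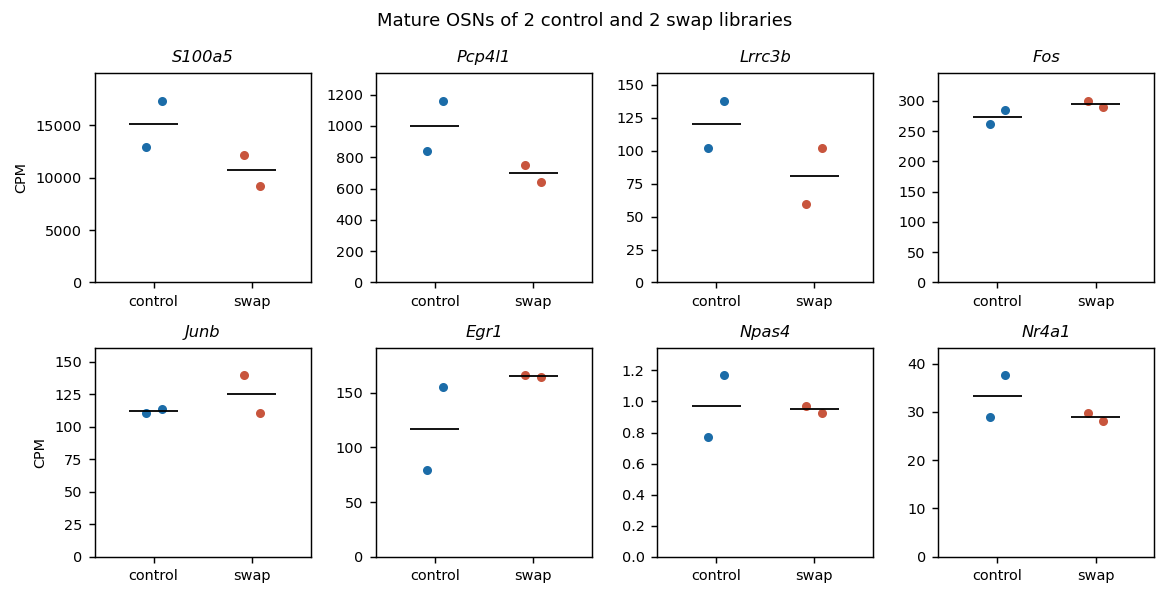
CPM of each gene in mature OSNs of the 2 control and 2 swap libraries, each point 1 library and each line a mean, on axes that start at 0. *S100a5* is at 9215 and 12178 CPM in swap libraries, below the controls at 12871 and 17344 CPM.

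Mature OSNs were divided by *Nqo1*, an enzyme of OSNs in the dorsal zone of the epithelium, at least 1 UMI against none. Position itself was not measured. The paper proposes that ventral neurons of swap mice take on a dorsal transcriptional identity, so *Nqo1* need not mark position in the swap libraries. Of 11184 genes edgeR called 3.08%, 1.17% higher and 1.91% lower in *Nqo1*-positive cells, and of 7 members tested none, 3 of them at an unadjusted p under 0.05. *Fos* (0.30) and *Junb* (0.22) had adjusted p values of 0.012 and 0.013 by edgeR and stayed under the fold threshold. *S100a5* had a log2 fold change of -0.13. Its *Nqo1*-positive level was 0.664 and 0.672 of the *Nqo1*-negative level in control replicates 1 and 2, 0.890 and 0.957 in swap replicates 1 and 2, 0.979 in gg8tTA and 1.47 in tetOP2, so the libraries went different ways. The difference between swap and control in this ratio was 0.46 on the log2 scale (adjusted p = 0.12 by edgeR).

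The receptor transgene put *Olfr17* in most mature OSNs of 1 library, which gave many cells with the same receptor. *Olfr17* was the chosen receptor of 377 of 639 tetOP2 cells with a receptor, of 1 gg8tTA cell and of 0 to 6 cells in each other library. At least 1 *Olfr17* UMI was seen in 542 of the 672 mature OSNs of tetOP2, and in 5 of 691 in gg8tTA. Some tetOP2 cells with another receptor thus held its transcript too, and whether as free RNA was not tested. With 1 library per group there is no test, and the intervals below are 95% Poisson intervals that cover counting error only. Over all mature OSNs the ratio of tetOP2 to gg8tTA was 1.36 (1.34 to 1.37) for *S100a5* and 1.25 for *Pcp4l1*, and 0.911 for *Lrrc3b*, 0.666 for *Fos*, 0.884 for *Junb*, 0.517 for *Egr1* and 0.558 for *Nr4a1*. *Lrrc3b* turned to 1.06 with at least 3 *Omp* UMIs, and *Junb* to 1.06 in cells with no *Cyp2g1* UMI and none above the 95th percentile of UMIs. For *Npas4* it was 1.02 (0.387 to 2.64), from 10 and 11 UMIs.

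Within tetOP2, *Olfr17* cells were at 10793 CPM of *S100a5* and the 262 cells with another receptor at 11935 CPM, a ratio of 0.904. The typical cell went the other way, with quartiles of 2, 26 and 94 *S100a5* UMIs per 5000 in *Olfr17* cells and 1, 13.5 and 71.3 in cells with another receptor. The ratio was 0.636 for *Pcp4l1*, 0.904 for *Lrrc3b*, 0.785 for *Fos*, 0.700 for *Egr1*, 0.984 for *Junb* and 1.37 for *Nr4a1*, which turned to 0.869 in thinned cells. In the 13 cells of the other 5 libraries that chose *Olfr17*, *S100a5* was at 7457 CPM (7015 to 7920), near the middle of the order of receptors.

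Cells with the same transgenic receptor were as unlike in *S100a5* as tetOP2 cells with other receptors. The SD of log2(*S100a5* UMIs + 1) was 2.69 in *Olfr17* cells and 2.71 in cells with another receptor. It was 2.70 in all mature OSNs of tetOP2, which include the *Olfr17* cells. Outside tetOP2, the few cells that chose *Olfr17*, pooled over libraries, had an SD of 2.49. Over *Olfr17* cells the r of *S100a5* was 0.81 with *Pcp4l1* and -0.82 with *Calb2*, so the set that varied between receptors also varied among cells of 1 receptor.

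*Nqo1* separated part of this range, a division made after the data had been seen. In *Olfr17* cells *S100a5* was at 17555 CPM in the 121 *Nqo1*-positive cells and 7382 CPM in the 256 *Nqo1*-negative cells, and the medians per 5000 UMIs were 86 and 7. *Pcp4l1* was at 1151 against 349 CPM, *Lrrc3b* at 237 against 108 CPM and *Nr4a1* at 92.5 against 38.5 CPM. *Calb2* was the other way, at 852 against 1591 CPM, and *Fos* was at 273 against 282 CPM. In tetOP2 cells with another receptor *S100a5* was at 10353 CPM in 99 *Nqo1*-positive and 12846 CPM in 163 *Nqo1*-negative cells, so the direction there was opposite, and what moved with this division in *Olfr17* cells was not tested.

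**Figure D5:**
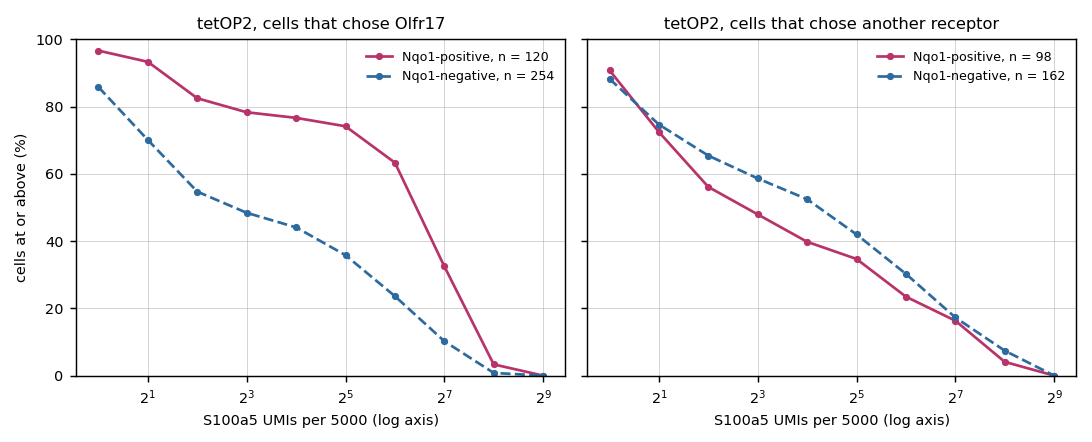
Share of tetOP2 mature OSNs (vertical axis, percent) with at least the number of *S100a5* UMIs per 5000 on the horizontal log axis, for cells that chose *Olfr17* or another receptor, each divided by *Nqo1*. The *Nqo1*-positive curve of *Olfr17* cells lies above the *Nqo1*-negative one, with medians of 86 and 7 UMIs.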

How the data were processed

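The data were 3′ single-cell UMI counts of 6 libraries, which the authors made with Cell Ranger, intronic reads included, on mm10 per the labels, and deposited as 29950 called barcodes. A part of the genotype labels and 1 gene are not reported here. The 8 genes and all gene lists were chosen with earlier results of these data known.

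Barcodes under 1000 UMIs or 500 genes were dropped. Immature OSNs had at least 10 *Gap43* UMIs, more *Gap43* than *Omp* and fewer than 5 *Cyp2g1* UMIs, and sustentacular cells at least 20 *Cyp2g1* UMIs. Doublets were not called. Counts were summed per library and class, filtered with filterByExpr, scaled by TMM and tested with edgeR 4.0.16 in R 4.3.3 (glmQLFit and glmQLFTest), with libraries as blocks where each gave both classes. Benjamini-Hochberg adjustment ran over all genes tested. DESeq2 1.42.0, other scalings, filters and gates, thinning and leaving out each library were alternatives, and the tests were tried on simulated data. Named genes outside the members were those of fixed lists, the 10 most and 5 least like *S100a5* and *Fos*, and the 6 receptors at each end. For the split by *S100a5*, *Calb2* was shown for its place at the end of that order. Depth was 32005196 to 63277934 UMIs per library. The libraries are labelled as replicates, and nothing in the labels says from how many mice each came, so p-values measure the spread between libraries. Among swap and control libraries that spread includes the unlike genotype labels of the controls and the unlike sex of the swap libraries. The 3′ assay gives no level per length, so levels were not compared between genes.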

Additional observations from a re-analysis of the deposited data

Results flagged for a closer look

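Differences between swap and control in the contrasts within mature OSNs were tested as an interaction with edgeR, at 2 libraries each, and no member was called in any of them. The contrast of *S100a5*-high and *S100a5*-low cells differed for 26 genes, among them *Calb2* and *Nqo1*. These classes were set in each library, at unlike levels of thinned *S100a5*. The 75th percentile was 68 and 62.25 UMIs in swap replicates 1 and 2. In control replicates 1 and 2 it was 90.75 and 124 UMIs. The 25th percentile was 2 UMIs in control replicate 2 and 0 in each other swap and control library. What part these unlike limits had in the differences with the swap was not tested. The negative log2 fold change of *Calb2* was less negative by 1.44 with the swap (adjusted p = 4.9e-06 by edgeR). That of *Nqo1* was shifted upward by 0.97 with the swap (adjusted p = 2.4e-08 by edgeR). That of *Fos*-positive and *Fos*-negative cells differed for 6 genes, 4 of them the receptors *Olfr17*, *Olfr365*, *Olfr723* and *Olfr1262*, with *Fxyd2* and *Retnlg*. That of *Nqo1* differed for 2 genes, the receptors *Olfr201* and *Olfr434*. Calls of receptor genes can rest on very few cells. *Olfr17*, at -10.2 on the log2 scale, was chosen by 0 and 2 cells in swap replicates 1 and 2 and by 4 and 6 in control replicates 1 and 2. No effect of the swap on these receptors can be read from such calls.

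In the tetOP2 library the *S100a5* level of *Nqo1*-positive over *Nqo1*-negative cells was 2.38 in cells that chose *Olfr17* and 0.806 in cells with another receptor, opposite directions in the same library. With 1 library the difference was not tested, and the division was made after the data had been seen.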

How the results depend on the processing

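Member results kept their direction and their side of the threshold in 492 of the recomputed values. Of the rest, 22 reversed, 17 lost a call, 8 gained one and 7 ratios left their main interval. This count leaves out *S100a5* in the matched receptors and in the ratios of tetOP2 and of *Olfr17* cells. Its ratios of 1.38, 1.57, 0.991 and 0.886 given below left their main intervals too. The replicate block for matched receptors equals the main value by construction, so its unchanged values carry no information. Between swap and control edgeR called 0 genes, 4 with no filter, 205 with DESeq2, 94 to 204 with 1 library left out, where the lone library is assumed to vary like the other group, and 0 with the replicate number as a replicate block. Same-numbered libraries had deviations correlated at 0.27, but the labels do not say that a number marks a shared batch. Signs turned for *Fos* (-0.067 with a strict gate, no *Cyp2g1* UMI and no cell above the 95th percentile of UMIs, -0.066 thinned, -0.045 with at most 2 marker UMIs), *Junb* (-0.084, -0.049 and -0.12 likewise, and -0.036 to 0.25 with 1 library left out) and *Npas4* (0.54 with at least 3 *Omp* UMIs, 0.18 with at most 2 marker UMIs, -0.31 to 0.18 with 1 library left out). For *Nqo1* the count of 345 was 850 with no filter and 87 with no replicate block, *Lrrc3b* was -0.025 thinned, -0.075 with at most 2 marker UMIs and -0.094 to 0.11 with 1 library left out, and *Nr4a1* -0.12 thinned. For *Fos* the count of 54 was 106 with no filter, 6 with no replicate block, 164 with no thinning, 25 with at most 2 marker UMIs and 27 to 52 with 1 library left out. With no replicate block *Junb* and *Nr4a1* were not called there. *Pcp4l1* was 0.095 with no thinning and *Lrrc3b* 0.046 with no thinning, 0.077 with at most 2 marker UMIs and -0.082 to 0.012 with 1 library left out. For *S100a5* the count of 619 was 1407 with no filter and 247 with no replicate block, and *Nr4a1* lost its call with DESeq2, with no replicate block and with no thinning. *Egr1* was called without swap replicate 1 (-0.64). For chosen receptors the count of 446 was 821 with no filter, 970 from at least 3 cells, 178 with at most 2 marker UMIs and 271 to 438 with 1 library left out, and *Junb* lost its call with DESeq2 (adjusted p 0.14) and without control replicates 1 (0.14) and 2 (0.27). Sums of at least 5 cells left no receptor matched in all 4 libraries, so that alternative gave no value. The *S100a5* ratio of tetOP2 to gg8tTA was 1.38 thinned and 1.57 with at least 3 *Omp* UMIs, where *Lrrc3b* was 1.06, and *Junb* was 1.06 with the strict gate. In *Olfr17* cells the *S100a5* ratio was 0.991 thinned, where *Nr4a1* was 0.869, and 0.886 with at least 10 receptor UMIs. The causes were not tested. *Npas4* was limited by its 73 UMIs.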
